A study of Homo sapiens with 12 samples.

Results

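The dose comparison described here set HCT116 cells treated with dolastatin 15 at 100 nM for 24 h against HCT116 cells treated at 20 nM for 24 h. HCT116 is an established human colorectal carcinoma line. The comparison comprised the 4 libraries of those groups of the 12 in the series, chosen by dose and time from the labels, and the 13458 genes that passed a filter on low values out of 58174 in the deposited table. Libraries 9 and 10 are 100 nM at 24 h and libraries 7 and 8 are 20 nM at 24 h. No solvent library entered the difference itself. The other 8 libraries, 2 for each of 100 nM at 16 h (3 and 4), 20 nM at 16 h (1 and 2), solvent at 24 h (11 and 12) and solvent at 16 h (5 and 6), shared the estimate of the spread between libraries, and some of their values are given beside those of the dose comparison. Every culture, solvent ones included, held 0.25% DMSO in medium with 5% serum. All samples came from this single line. Nothing in the labels says that duplicates were grown separately, so a p-value here reflects the spread between libraries alone, some of which can be technical.

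Dolastatin 15 is a peptide, originally isolated from a sea hare, that binds tubulin, the subunit of microtubules, and blocks microtubule assembly. Cells without a working spindle halt in mitosis because the spindle checkpoint holds back the anaphase-promoting complex, and some of them later leave mitosis without dividing. Free tubulin also speeds the decay of tubulin mRNA on ribosomes, so drugs that take microtubules apart usually lower tubulin mRNA. In bulk samples such as these, fewer cells in a state and less RNA per cell cannot be told apart.

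Values were FPKM, in which a gene's fragments are divided by its transcript length and by the size of the library. The FPKM sum was 978509.7 and 989986 in the 100 nM libraries, against 1048249.2 and 1049886.3 in the 20 nM libraries. Mitochondrially encoded genes held 19.7% ± 1.35 of that sum at 100 nM and 24.8% ± 1.42 at 20 nM (SD, n = 2 each), a difference of -5.05 percentage points (two-sided exact permutation test, p = 0.333, the smallest that 2 against 2 libraries can give). Ratios of the steps among low values put the relative read depth of the 4 libraries at 0.998 and 1.138 (100 nM) and 0.886 and 0.98 (20 nM), while absolute depth is unknown. Over all 66 pairs of libraries the median misfit of these ratios was 0.692%, with 51 pairs within 3% and the largest misfit at 72.6%. Pearson correlations across genes on the log2 scale were 0.994 within 100 nM, 0.9908 within 20 nM and 0.9884 to 0.9902 between the doses. Of 7 markers of colon epithelium, 6 stood at 1 FPKM or more in all 4 libraries, among them EPCAM (297 and 288 FPKM at 100 nM, 335 and 334 FPKM at 20 nM), whereas VIL1 stayed at or under 0.16 FPKM. Of 21 markers of T cells, B cells, macrophages, endothelium, fibroblasts and erythroid cells, 3 reached 1 FPKM in all 4 libraries, namely CD68 (17.31 and 14.41 FPKM at 100 nM, 14.27 and 18.95 FPKM at 20 nM), COL1A1 (2.27 and 2.82 FPKM at 100 nM, 3.29 and 3.23 FPKM at 20 nM) and HBA1 (1.76 and 2.02 FPKM at 100 nM, 1.19 and 1.5 FPKM at 20 nM). CD2, MS4A1, DCN and HBB were listed at 0 in all 4.

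After 24 h, many small differences between the higher and the lower dose were called. On the log2(FPKM + 1) scale, the median absolute difference between dose means, each of 2 libraries, was 0.111. Between single libraries it was 0.115 for 7 and 8 and 0.075 for 9 and 10. Means of 2 libraries vary less than single libraries, so the 0.111 cannot be set directly against the other values. Of 48 genes of G2 and mitosis, 15 were lower at 100 nM, among them TOP2A and CDK1, and 7 were higher, among them cyclin B1 and CDC20. Tubulins (3 of 14 lower, 2 higher) and heat shock genes (2 of 16 lower, 2 higher) were divided too, and 6 of 26 SRF targets and actin genes were higher. In all, limma called 657 of 13458 genes (4.88%) at a threshold of 0.05 on the p-value adjusted by the Benjamini-Hochberg method, of which 245 (1.82%) were higher and 412 (3.06%) were lower at 100 nM, and 3099 genes had an unadjusted p under 0.05. Differences are given as 100 nM minus 20 nM on the log2(FPKM + 1) scale, which understates the change of low genes. The median size of a called difference was 0.323, the smallest was 0.145, 45 called genes passed 1.5-fold and 10 passed 2-fold on this scale. The median difference over all tested genes was -0.03. Both 100 nM libraries lay outside the range of both 20 nM libraries in all 657 called genes, and the same held, upwards, for 19.5% and, downwards, for 31.0% of all genes tested.

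**Figure D1:**
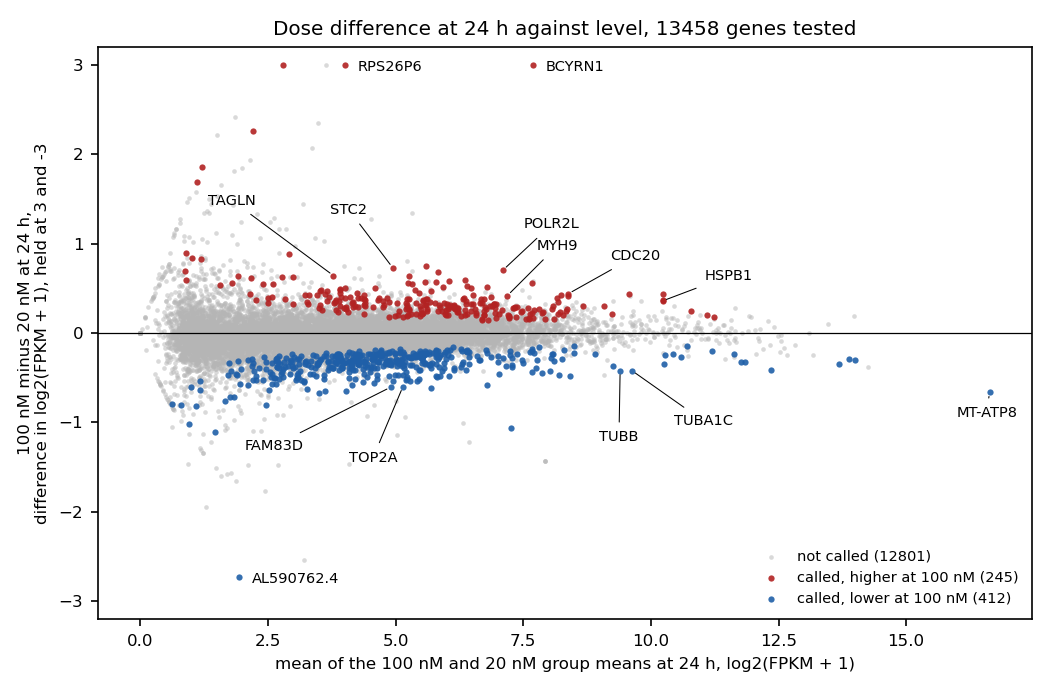
Difference between 100 nM and 20 nM at 24 h (vertical axis, log2(FPKM + 1), points beyond 3 drawn at 3) against the mean level of both groups (horizontal axis, log2(FPKM + 1)), with 1 point per tested gene. The 245 genes called higher (red) and 412 called lower (blue) spread over all levels, most of them within 1 unit of 0, and MT-ATP8 is the highest-level gene called.

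The calls rested on the spread pooled over all 12 libraries and on single libraries. The 4 libraries alone gave 4 calls and the 24 h libraries alone gave 9. Without library 7, 8, 9 or 10 the count was 1511, 122, 42 or 81, and 32 genes, 27 lower and 5 higher, stayed called in all 4 of those fits (named below as called without each library in turn, and including RPS26P6 and AL590762.4, which were above 0 in a single group each). Leaving out a 16 h drug library, which enters through the pooled spread alone, gave 340 calls without library 1 or 2 and 508 and 511 without library 3 and 4. Rescaling also moved the split between directions, since 37.3% of calls were higher with FPKM as deposited, 40.9% when libraries were brought to a common sum of nuclear genes, 58.0% with median-of-ratios scaling and 82.8% (797 higher, 166 lower) after rescaling to a common sum over all genes, with no called gene changing sign in any of them.

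GC content and transcript length moved with the dose difference. Genes called higher had a median GC content of 58.2% and a median transcript length of 2656 bases, genes called lower had 43.7% and 3718 bases, and all tested genes had 48.8% and 3331 bases. Across 13420 genes, Spearman's rho of the dose difference was 0.275 with GC content and -0.174 with length, and the difference between the duplicates 8 and 7 had rho -0.28 and 0.251, against -0.018 and -0.009 between 10 and 9 (genes are not independent, and these are descriptions). With each library's trend over GC content removed, 290 genes were called higher and 243 lower, and 427 of the 657 calls remained.

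Among 32 gene lists, G2 and mitosis held the most calls, with 7 of 48 members higher and 15 lower. Lists with 1 call in each direction among 20 or more members, such as the nuclear respiratory chain, had shares near those of all genes. The lists describe these data and were not tested as sets. Their medians ran from -0.24 (mitochondrially encoded) to 0.27 (SMG1, SLC7A5 and their pseudogenes), against -0.03 over all genes. Rescaling to a common sum shifted all list medians upwards, and only those of replication, interferon-stimulated and mitochondrially encoded genes were then below 0. In the list of clustered histones (16 tested, median 0.06), limma called 0 genes, with 1 higher and 1 lower at an unadjusted p under 0.05. The libraries were poly(A)-selected, so histone transcripts without a poly(A) tail would be largely missed. Among 11 genes of fatty acid synthesis (median -0.07) limma also called 0, with 1 higher and 2 lower at an unadjusted p under 0.05. Nearest to the threshold were fatty acid synthase, FASN (0.22, adjusted p = 0.0565), and its regulator SREBF1 (-0.20, adjusted p = 0.0556), ahead of ACLY (-0.26), ACACA (0.25), FADS1 (-0.22), ELOVL6 (-1.14), ACSS2 (-0.14), LPIN1 (-0.07), SCD (-0.03), ACSL3 (0.01) and FADS2 (0.01).

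**Figure D2:**
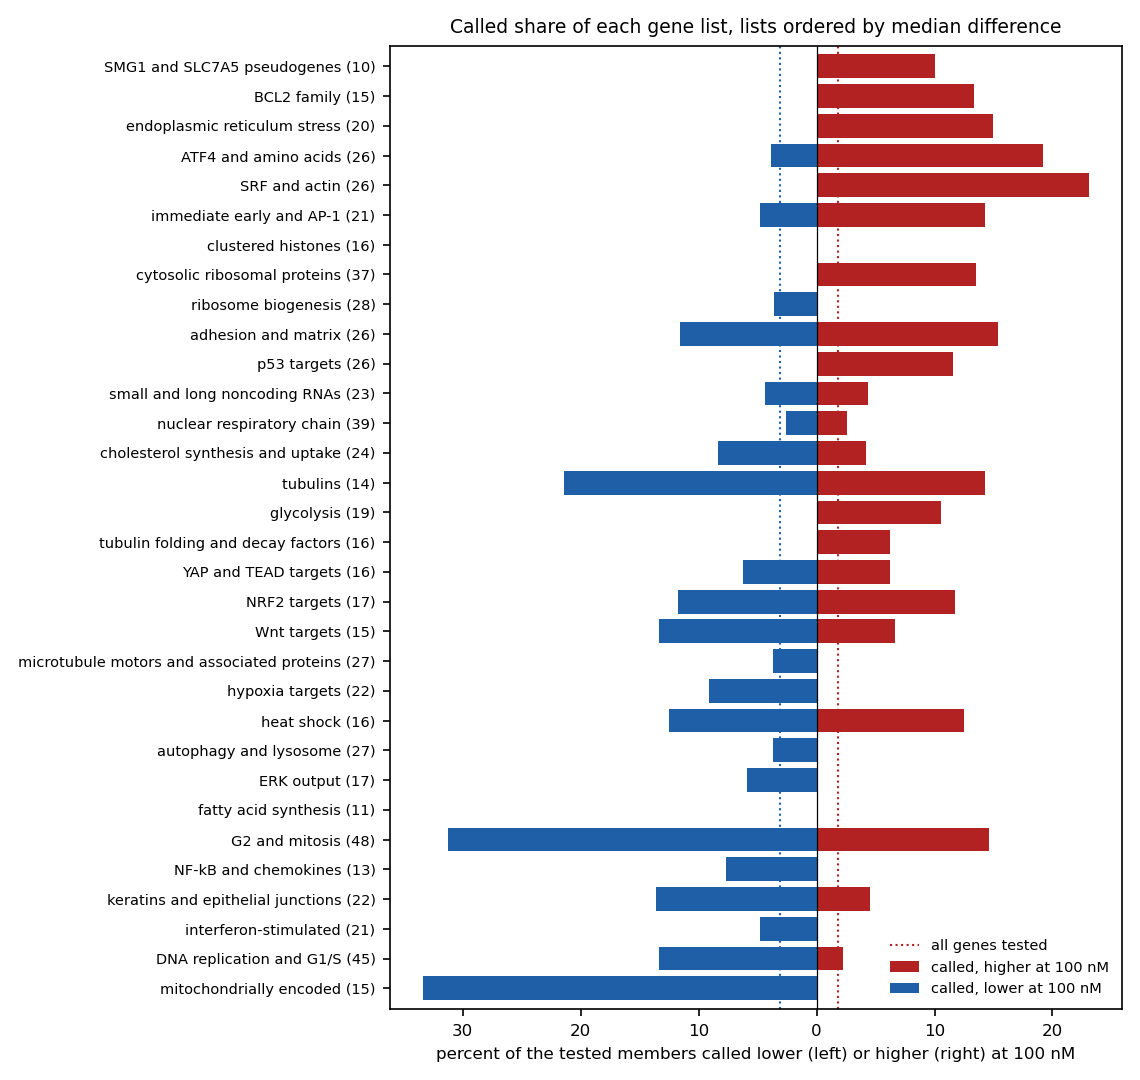
Percent of the tested members of each list (number tested in parentheses) that were called higher at 100 nM (red, right) or lower at 100 nM (blue, left) at 24 h, with dotted lines at the shares over all tested genes, 1.82% and 3.06%. Lists run from the highest median difference at the top to the lowest at the bottom, where the mitochondrially encoded genes have 5 of 15 members lower.

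Tubulins, the target of the drug, went apart by gene. Of 14 tested, 3 fell, 2 rose and 9 did not pass, with a median difference of 0.00 against -0.03 over all genes. TUBB, a major beta-tubulin (chromosome 6, 30720201 to 30725426), had 562 and 590.3 FPKM at 100 nM, against 753 and 788 FPKM at 20 nM (log2 difference -0.42, SE 0.04, adjusted p = 0.0022). Neither TUBB range touched the other, and solvent cultures at 24 h stood above both, at 1043 and 1069.9 FPKM. TUBA1C, an alpha-tubulin (chromosome 12, 49188736 to 49274603), had 658 and 694 FPKM at 100 nM, against 878 and 932 FPKM at 20 nM (log2 difference -0.42, SE 0.04, adjusted p = 0.0022), with 1474 and 1473 FPKM in solvent. TUBA1B, the alpha-tubulin of highest level here, fell (-0.14) to 1566 and 1589.6 FPKM at 100 nM, against 1702 and 1787 FPKM at 20 nM. The beta-tubulins TUBB2A (0.25) and TUBB6 (0.15) rose. TUBB2B (0.26, adjusted p = 0.18), TUBB3 (0.11, adjusted p = 0.299), TUBA1A (-0.09, adjusted p = 0.338), TUBA4A (-0.05), TUBB4A (0.03), TUBB4B (-0.03), and the gamma-, delta- and epsilon-tubulins TUBG1 (-0.04), TUBD1 (0.04) and TUBE1 (0.05) did not pass. The summed FPKM of the list was 4177 and 4268 at 100 nM, against 4741 and 4829.6 at 20 nM and 6225 and 6329.5 in solvent. Among 16 tubulin folding and decay factors (median -0.0048), the tubulin tyrosine ligase-like TTLL12 rose (0.20) and 15 did not pass, and among 27 motors and microtubule-associated proteins (median -0.03) the microtubule polymerase CKAP5 fell (-0.36, 42.1 and 45.5 FPKM at 100 nM, 57.02 and 56.1 FPKM at 20 nM) and 26 did not pass. TUBA1C and TUBA1B share 97.53% identity over 1334 aligned bases and TUBB2A and TUBB2B 98.28% over 1340, so reads may be divided uncertainly among them. TUBB and TUBA1C kept their calls without each library in turn, while TUBB2A, TUBB6, TUBA1B and TTLL12 lost theirs without library 8, 9 or 10 (adjusted p 0.0666 to 0.227 with CKAP5, which lost it without 9), and TUBA1B, TUBB6 and TTLL12 also after GC adjustment (0.0674 to 0.113). TUBA1B further lost its call after rescaling to a common sum over all genes (log2 difference -0.05, adjusted p = 0.373) or over nuclear genes (0.059) and after median-of-ratios scaling (0.104).

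Genes of G2 and mitosis divided into a higher and a lower group. Of 48 tested, 7 rose, 15 fell and 26 did not pass. The median difference of the list was -0.07 with FPKM as deposited and 0.02 after rescaling to a common sum, where 11 were called higher and 10 lower. The 7 that rose were regulators that act from mitotic entry to cytokinesis. CDC20, the activator of the anaphase-promoting complex that the spindle checkpoint holds in check (chromosome 1, 43358955 to 43363203), had 389 and 377 FPKM at 100 nM, against 302 and 264 FPKM at 20 nM (log2 difference 0.44, SE 0.06, adjusted p = 0.0108). CCNB1, cyclin B1, which with CDK1 drives entry into mitosis (chromosome 5, 69167010 to 69178245), had 328 and 323 FPKM at 100 nM, against 259 and 254 FPKM at 20 nM (log2 difference 0.34, SE 0.04, adjusted p = 0.00564). In both genes the doses did not overlap, and solvent cultures lay between the doses for CCNB1 (289.9 and 292 FPKM) and overlapped the 20 nM libraries for CDC20 (308 and 293 FPKM). The mitotic kinases AURKA (0.29) and PLK1 (0.28), the cytokinesis kinesin KIF20A (0.24), the separase inhibitor securin, PTTG1 (0.23), and cyclin B2, CCNB2 (0.14), rose as well. PLK1 had 169.6 and 171 FPKM at 100 nM, against 137 and 144 FPKM at 20 nM, both below the 192 and 192 FPKM of solvent. All 7 lost the call without library 9. PLK1, CDC20, KIF20A, PTTG1 and CCNB2 lost it without library 10, PTTG1 and CCNB2 without library 8, and CCNB2 without library 7. All 7 kept it under each scaling and GC adjustment.

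The 15 mitotic genes that fell included proteins of chromosomes and the spindle as well as kinases and phosphatases of the cell cycle. TOP2A, the topoisomerase that untangles sister chromatids (chromosome 17, 40388516 to 40417950), had 26.1 and 28.1 FPKM at 100 nM, against 39.6 and 43.5 FPKM at 20 nM (log2 difference -0.60, SE 0.06, adjusted p = 0.00244). NUSAP1, which binds and bundles spindle microtubules (chromosome 15, 41332694 to 41381050), had 85 and 90.4 FPKM at 100 nM, against 126 and 137 FPKM at 20 nM (log2 difference -0.58, SE 0.05, adjusted p = 0.0022). CDK1, the kinase that cyclin B1 activates (chromosome 10, 60778331 to 60794852), had 33.99 and 33.3 FPKM at 100 nM, against 49.5 and 49.2 FPKM at 20 nM (log2 difference -0.54, SE 0.05, adjusted p = 0.00264). The 100 nM libraries lay below the 20 nM libraries in all of these genes, and solvent lay above both doses, at 51.9 and 55.03 FPKM for TOP2A, 158 and 159 FPKM for NUSAP1 and 62.3 and 61.5 FPKM for CDK1. UBE2C, the ubiquitin-conjugating enzyme that works with the anaphase-promoting complex, had 169 and 174 FPKM at 100 nM, against 229 and 234 FPKM at 20 nM (log2 difference -0.43, SE 0.04, adjusted p = 0.0022). INCENP (-0.37) and AURKB (-0.35), a scaffold and the kinase of the chromosomal passenger complex, fell together. CDC25C, the phosphatase that activates CDK1 (-0.57), and WEE1, the kinase that restrains it (-0.47), fell alike. The checkpoint kinase TTK (-0.54), the spindle kinesins KIF11 (-0.35) and KIF2C (-0.25), the centrosomal kinase NEK2 (-0.21), the CDK-binding subunit CKS1B (-0.31), the anaphase-promoting complex activator FZR1 (-0.32) and its inhibitor FBXO5 (-0.28) also fell. Of mitotic genes outside the list, FAM83D, which serves chromosome alignment (-0.61, 22.9 and 22.5 FPKM at 100 nM, 35 and 35.2 FPKM at 20 nM), the condensin subunit NCAPH (-0.49) and the kinase MELK (-0.41) fell and were chosen after their values were seen. TOP2A, NUSAP1, CDK1, UBE2C, INCENP, FAM83D, NCAPH and MELK stayed called without each library in turn. The other 10 of these 18 lost the call without library 9 (adjusted p 0.0653 to 0.17), 9 without library 10 (0.0536 to 0.125) and 7 without library 8 (0.0517 to 0.112), while CKS1B, FBXO5, NEK2 and WEE1 lost it under GC adjustment (0.0536 to 0.102) and these and FZR1 after rescaling to a common sum (0.0507 to 0.126).

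**Figure D3:**
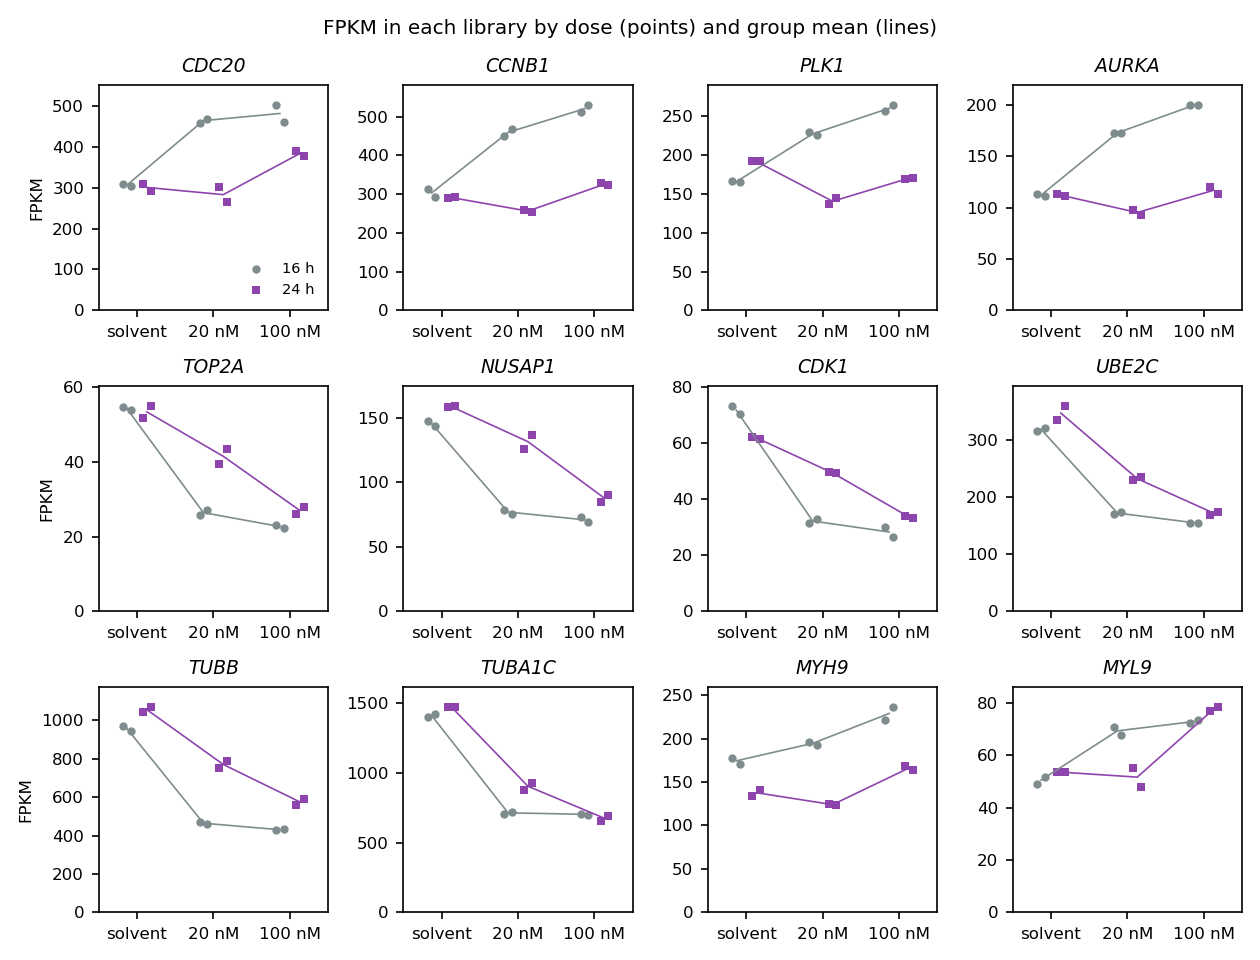
FPKM of 12 genes in every library (points) with group means joined by lines, for solvent, 20 nM and 100 nM, at 16 h (grey circles) and 24 h (purple squares); each vertical axis starts at 0. At 24 h, TOP2A, NUSAP1, CDK1, UBE2C, TUBB and TUBA1C step down from solvent over 20 nM to 100 nM, while CDC20, CCNB1, PLK1, AURKA, MYH9 and MYL9 are higher at 100 nM than at 20 nM.

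Promoters of mitotic genes often carry CCAAT boxes, bound by the factor NF-Y, and a CHR element, bound by the DREAM and MMB complexes. The promoters of 3 genes that rose and of 3 that fell are shown because both groups include well-known targets of these factors. Each runs from 150 bases before the RefSeq start to 30 bases from it on GRCh38.p14, 5′ to 3′ along the gene's strand, with CCAAT boxes (CCAAT, or ATTGG on the other strand) and CHR elements (TTTGAA, or TTCAAA on the other strand) in capitals.
CDC20, higher, chr1:43358831-43359010, + strand: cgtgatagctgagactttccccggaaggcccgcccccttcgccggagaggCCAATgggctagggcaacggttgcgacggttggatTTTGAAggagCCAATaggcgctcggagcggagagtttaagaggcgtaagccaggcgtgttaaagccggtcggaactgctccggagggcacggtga
CCNB1, higher, chr5:69167000-69167179, + strand: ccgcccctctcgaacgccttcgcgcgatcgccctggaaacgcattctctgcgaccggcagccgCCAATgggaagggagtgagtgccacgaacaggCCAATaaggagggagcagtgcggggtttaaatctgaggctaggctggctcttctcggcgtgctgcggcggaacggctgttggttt
PLK1, higher, chr16:23678739-23678918, + strand: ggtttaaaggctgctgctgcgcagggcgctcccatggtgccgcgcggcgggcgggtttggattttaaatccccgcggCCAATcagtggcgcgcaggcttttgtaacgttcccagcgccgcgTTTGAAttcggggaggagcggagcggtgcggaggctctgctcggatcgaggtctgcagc
TOP2A, lower, chr17:40417867-40418046, - strand: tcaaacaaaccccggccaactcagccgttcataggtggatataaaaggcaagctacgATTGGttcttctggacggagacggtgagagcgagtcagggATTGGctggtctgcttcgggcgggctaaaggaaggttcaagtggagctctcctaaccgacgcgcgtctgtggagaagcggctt
NUSAP1, lower, chr15:41332731-41332910, + strand: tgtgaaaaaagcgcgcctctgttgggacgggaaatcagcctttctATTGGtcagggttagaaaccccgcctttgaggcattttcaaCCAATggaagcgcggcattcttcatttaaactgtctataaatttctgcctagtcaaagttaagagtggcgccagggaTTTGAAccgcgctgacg
CDK1, lower, chr10:60778181-60778360, + strand: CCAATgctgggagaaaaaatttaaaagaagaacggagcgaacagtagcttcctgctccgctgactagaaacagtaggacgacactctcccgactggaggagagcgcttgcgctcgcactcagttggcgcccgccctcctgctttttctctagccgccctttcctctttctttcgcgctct
Over windows of 300 bases (250 before the start and 50 from it), both strands searched, a CCAAT box stood in 6 of the 6 higher genes with a promoter in the table, in 8 of 12 lower ones, in 15 of 21 that were not called, in 36.9% of the 9562 tested genes with a promoter and in 35.7% of all 27305 promoters. A CHR element stood in 3 of the 6 higher genes, in 7 of 12 lower ones, in 17 of 21 not called, in 9.11% of tested genes and in 15.4% of all promoters. Higher, lower and uncalled genes thus all held both motifs, and a match describes letters and not binding.

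A few S-phase genes were lower at 100 nM and cyclin E2 was higher. Of 45 replication and G1/S genes tested, 6 fell, 1 rose and 38 did not pass, 36 of 45 had a difference below 0, and the median was -0.13 with FPKM as deposited and -0.04 after rescaling to a common sum. RFC4, a subunit of the clamp loader (chromosome 3, 186789880 to 186807058), had 111 and 115 FPKM at 100 nM, against 147 and 137 FPKM at 20 nM (log2 difference -0.33, SE 0.05, adjusted p = 0.0115). The sliding clamp PCNA (-0.22), the primase subunit PRIM1 (-0.29), the licensing factor CDC6 (-0.28), the helicase subunit MCM6 (-0.19) and thymidylate synthase, TYMS (-0.17), fell with it. CCNE2, which encodes cyclin E2 and promotes entry into S phase, had 52.5 and 59.7 FPKM at 100 nM, against 38.3 and 36.4 FPKM at 20 nM (log2 difference 0.57, SE 0.10, adjusted p = 0.02), and the doses did not overlap. PCNA had 336 and 329 FPKM at 100 nM and 404 and 372 FPKM at 20 nM, with 324 and 332 FPKM in solvent, so that 100 nM lay nearest to solvent. All 7 lost the call without library 9 (adjusted p 0.0769 to 0.22) or 10 (0.0601 to 0.169), 5 without library 8 (CCNE2, PRIM1, MCM6, TYMS and CDC6, 0.089 to 0.117) and 2 without library 7 (TYMS and CDC6, 0.0557 and 0.0895). PCNA, MCM6, TYMS and CDC6 also lost it after rescaling to a common sum (0.104 to 0.195) and after GC adjustment (0.0576 to 0.099). After median-of-ratios scaling TYMS (adjusted p = 0.0608) and CDC6 (adjusted p = 0.0573) lost the call.

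Several actomyosin genes were higher at 100 nM. Of 26 tested SRF targets and actin genes, 6 rose and 20 did not pass, 0 fell (also 0 at an unadjusted p under 0.05 in limma, against 11 higher), 21 had a difference above 0, and the median was 0.08, positive under every scaling. MYH9, the heavy chain of nonmuscle myosin IIA (chromosome 22, 36281277 to 36388067), had 168 and 164 FPKM at 100 nM, against 124 and 124 FPKM at 20 nM (log2 difference 0.42, SE 0.04, adjusted p = 0.00307). MYL9, a regulatory light chain of myosin (chromosome 20, 36541484 to 36551447), had 76.8 and 78.4 FPKM at 100 nM, against 55.3 and 48.05 FPKM at 20 nM (log2 difference 0.58, SE 0.06, adjusted p = 0.0031). Solvent at 24 h lay between the doses for MYH9 (134 and 141 FPKM) and within the 20 nM range for MYL9 (53.6 and 53.5 FPKM). TAGLN, the actin-binding protein transgelin, had 14.8 and 16.7 FPKM at 100 nM, against 9.60 and 9.83 FPKM at 20 nM (log2 difference 0.64, SE 0.11, adjusted p = 0.0177), with 4.43 and 4.30 FPKM in solvent. The factor SRF itself (0.26), the crosslinker filamin A, FLNA (0.25), and the focal adhesion protein zyxin, ZYX (0.21), also rose. Among 16 YAP and TEAD targets (median -0.01), CYR61, a secreted matrix protein, rose (0.32), AMOTL2, a feedback regulator of YAP, fell (-0.22) and 14 did not pass. MYH9 and MYL9 stayed called without each library in turn, whereas TAGLN, FLNA, ZYX, SRF and AMOTL2 lost the call without library 8 (adjusted p 0.0545 to 0.141), these and CYR61 without 9 (0.0769 to 0.23) or 10 (0.0639 to 0.138), and AMOTL2 without 7 (0.075). ZYX also lost it after GC adjustment (0.107) and AMOTL2 after rescaling to a common sum (0.145) and median-of-ratios scaling (0.0618).

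Adhesion and junction genes changed in both directions. Of 26 adhesion and matrix genes (median 0.03), 4 rose, 3 fell and 19 did not pass, and of 22 keratins and epithelial junction genes (median -0.09) 1 rose, 3 fell and 18 did not pass. The matrix protein tenascin C, TNC (0.55), the membrane metalloprotease MMP14 (0.43), the collagen lysyl hydroxylase PLOD1 (0.23) and the hyaluronan receptor CD44 (0.21) rose. CRTAP, of the collagen prolyl 3-hydroxylation complex, had 29.1 and 29.3 FPKM at 100 nM, against 36.7 and 39.7 FPKM at 20 nM (log2 difference -0.37, SE 0.05, adjusted p = 0.00891), with 67.5 and 71.6 FPKM in solvent. PLOD2 (-0.39), a second lysyl hydroxylase, fell where PLOD1 rose, and the integrin subunit ITGA2 (-0.29), the desmosomal cadherin DSC2 (-0.44), the tight junction scaffold TJP1 (-0.34) and EPCAM (-0.19) fell, while the desmosomal plakophilin PKP3 (0.38) rose. All 11 lost the call without library 9 (adjusted p 0.0769 to 0.252) or 10 (0.0545 to 0.197), all but CRTAP and TNC without 8 (0.0734 to 0.197), and MMP14 and TNC without 7 (0.0755 and 0.0951). After GC adjustment EPCAM, PLOD2, MMP14, TJP1, ITGA2 and TNC lost it (0.0524 to 0.0942), and after rescaling to a common sum EPCAM, PLOD2, TJP1 and ITGA2 (0.0708 to 0.124), of which TJP1 and ITGA2 also lost it after median-of-ratios scaling (0.0579 and 0.0598) and, with TNC, over nuclear genes (0.0515 to 0.0578).

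Genes of the AP-1 family, dimers of JUN and FOS proteins, differed by member. Of 21 immediate early and AP-1 genes, 3 rose, 1 fell and 17 did not pass, with a median of 0.08. FOSL1 (chromosome 11, 65892049 to 65900573) had 326 and 325 FPKM at 100 nM, against 259 and 238 FPKM at 20 nM (log2 difference 0.39, SE 0.05, adjusted p = 0.00551), and solvent stood lower still, at 162 and 162 FPKM. JUN had 28.2 and 27.4 FPKM at 100 nM, against 21.1 and 20.9 FPKM at 20 nM (log2 difference 0.39, SE 0.06, adjusted p = 0.0113), with 10.7 and 9.77 FPKM in solvent. JUNB rose (0.24) and JUND fell (-0.46), to 116 and 102 FPKM at 100 nM, against 147 and 151 FPKM at 20 nM. MAP2K3, a kinase that activates p38, had 97.4 and 99.7 FPKM at 100 nM, against 70.9 and 65.8 FPKM at 20 nM (log2 difference 0.52, SE 0.06, adjusted p = 0.0031), and was chosen after its values were seen. In other signalling lists few genes passed. Of 17 genes of ERK output (median -0.06), 1 fell, PHLDA1 (-0.21). Of 15 Wnt targets (median -0.03), the Wnt inhibitor DKK1 (-0.37, 527 and 539 FPKM at 100 nM, 655 and 728 FPKM at 20 nM) and BMP4 (-0.16) fell and CD44 rose. Of 13 NF-kB genes and chemokines (median -0.08), 1 fell, the inhibitor NFKBIA (-0.23). The other 12 did not pass and ran from TNFAIP2 (-0.29), CXCL8 (-0.17), IRF1 (-0.14), TNFAIP3 (-0.08), NFKB1 (-0.08), RELA (-0.08) and RELB (-0.01) to SOD2 (0.01), NFKBIE (0.04), NFKB2 (0.06), ICAM1 (0.13) and NFKBIB (0.19). Of 21 interferon-stimulated genes (median -0.09), 1 fell, the signal transducer STAT2 (-0.53). MAP2K3 stayed called without each library in turn. The other 9 genes of these lists, CD44 aside, lost the call without library 9 (adjusted p 0.0589 to 0.216), all of them but FOSL1 without 10 (0.0521 to 0.202), all but FOSL1 and DKK1 without 8 (0.0532 to 0.199), and BMP4 and NFKBIA without 7 (0.0619 and 0.0777). PHLDA1, BMP4 and NFKBIA also lost it after rescaling to a common sum (0.0975 to 0.224). BMP4 and NFKBIA lost it after median-of-ratios scaling (0.0589 and 0.0595), and PHLDA1 and JUNB after GC adjustment (0.0653 to 0.115).

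Among cell death genes, the proapoptotic BAD and BAX rose, BAX being 1 of 3 p53 targets that did. BAD (0.38) and BAX (0.27) were the called members of 15 genes of the BCL2 family, whose median was 0.15 and whose survival members MCL1 (-0.17, adjusted p = 0.0708) and BCL2L1 (0.01, adjusted p = 0.939) did not pass. BAD had 53.3 and 53.9 FPKM at 100 nM, against 43.2 and 38.6 FPKM at 20 nM (log2 difference 0.38, SE 0.05, adjusted p = 0.00891), and the 100 nM values lay nearer to the 57.1 and 55.3 FPKM of solvent. Of 26 p53 targets (median 0.03), BAX, the kinase PLK2 (0.38) and the nuclease AEN (0.32) rose and 23 did not pass. After adjustment for both GC content and length, BAX lost its call in limma (adjusted p = 0.0612). Heat shock genes were divided, with 2 of 16 higher, 2 lower and a median of -0.05. HSPB1, a small heat shock protein that binds actin and unfolded proteins (chromosome 7, 76302544 to 76304295), had 1376 and 1318 FPKM at 100 nM, against 1082 and 1018 FPKM at 20 nM (log2 difference 0.36, SE 0.05, adjusted p = 0.00852), and its partner BAG3 rose (0.27). DNAJB1, an HSP40 co-chaperone (chromosome 19, 14514770 to 14529770), had 133 and 136 FPKM at 100 nM, against 177 and 174 FPKM at 20 nM (log2 difference -0.38, SE 0.03, adjusted p = 0.0022). HSPA1B, an inducible HSP70 that shares 98.61% identity over 2152 aligned bases with HSPA1A, had 274 and 275 FPKM at 100 nM, against 338 and 336 FPKM at 20 nM (log2 difference -0.29, SE 0.03, adjusted p = 0.0031). Solvent stood above both doses for DNAJB1 (256 and 255 FPKM) and HSPA1B (623 and 630.3 FPKM). DNAJB1 and HSPA1B stayed called without each library in turn, while HSPB1, BAD, BAG3, PLK2, BAX and AEN lost the call without library 9 (adjusted p 0.0742 to 0.21), BAG3, PLK2, BAX and AEN without 8 (0.0504 to 0.131) and BAD, BAG3, BAX and AEN without 10 (0.0639 to 0.161).

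Some stress genes of the endoplasmic reticulum and of the amino acid response were modestly higher. Of 20 genes of endoplasmic reticulum stress, 3 rose and 17 did not pass, with 9 higher and 1 lower at an unadjusted p under 0.05 and a median of 0.10. The chaperone HSPA5, known as BiP (chromosome 9, 125234853 to 125241330), had 247 and 241 FPKM at 100 nM, against 205 and 199.8 FPKM at 20 nM (log2 difference 0.27, SE 0.04, adjusted p = 0.0134), with 255 and 269.98 FPKM in solvent. The secreted factor MANF (0.33) and the disulfide isomerase PDIA4 (0.16) rose too. Of 26 ATF4 targets and amino acid genes, 5 rose, 1 fell and 20 did not pass, with a median of 0.09. STC2, stanniocalcin 2, a secreted glycoprotein (chromosome 5, 173314713 to 173329503), had 40.2 and 34.6 FPKM at 100 nM, against 22.98 and 21.2 FPKM at 20 nM (log2 difference 0.73, SE 0.11, adjusted p = 0.0115), and the 20 nM values lay near the 19.4 and 19.5 FPKM of solvent. ATF4 (0.16), its relative ATF5 (0.25) and the amino acid transporters SLC7A5 (0.23) and SLC1A5 (0.32) rose, and PSAT1, an enzyme of serine synthesis, fell (-0.28). Of 17 NRF2 targets (median -0.01), the sulfiredoxin SRXN1 (0.32) and OSGIN1 (0.35) rose and the export pump ABCC2 (-0.30) and malic enzyme, ME1 (-0.22), fell. In the list of SLC7A5, SMG1 and their pseudogenes, 1 of 10 passed, SLC7A5 itself. Its pseudogenes SLC7A5P1 (0.32) and SLC7A5P2 (0.39), SMG1 (0.13) and the SMG1 pseudogenes SMG1P1 (0.45), SMG1P2 (0.08), SMG1P3 (0.32), SMG1P4 (1.08), SMG1P5 (-0.03) and SMG1P7 (-0.25) did not pass. All 13 lost the call without library 8 (adjusted p 0.0607 to 0.199) or 9 (0.0945 to 0.196), and all but STC2 without 10 (0.0711 to 0.172). ME1 and ABCC2 lost it after GC adjustment (0.0627 to 0.109) and after rescaling to a common sum (adjusted p = 0.118 for ME1 and 0.0648 for ABCC2). After median-of-ratios scaling ME1 lost it (0.0534). ATF4 lost it after adjustment for both GC content and length (0.0536).

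Metabolic lists held few calls. Of 22 hypoxia targets (median -0.04), 2 fell, the angiogenic factor VEGFA (-0.47, 20.8 and 18.7 FPKM at 100 nM, 26.6 and 28.96 FPKM at 20 nM) and the collagen prolyl hydroxylase P4HA2 (-0.39). Of 19 glycolytic genes (median 0.00), hexokinase 2, HK2 (0.26), and the phosphofructokinase PFKP (0.16) rose. Of 24 genes of cholesterol synthesis and uptake (median 0.02), MVD, of the mevalonate pathway, rose (0.59) and the sterol carrier STARD4 (-0.31) and the demethylating oxidase MSMO1 (-0.18) fell. Of 27 autophagy and lysosome genes (median -0.05), 1 fell, the autophagy receptor NBR1 (-0.20). All 8 lost the call without library 8 (adjusted p 0.0832 to 0.184), 9 (0.109 to 0.221) or 10 (0.0781 to 0.161), and NBR1, MSMO1 and STARD4 after median-of-ratios scaling (0.0558 to 0.0734) and GC adjustment (0.0886 to 0.237). After rescaling to a common sum these and P4HA2 lost it (0.0592 to 0.252), and over nuclear genes STARD4 did (0.0505).

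MT-ATP8 and a few other mitochondrially encoded transcripts were lower at 100 nM. Of 15 tested, 5 fell, 10 did not pass and 0 rose (limma, with 12 lower and 0 higher at an unadjusted p under 0.05), and the median was -0.24, below 0 under every scaling. MT-ATP8, a subunit gene of ATP synthase with a transcript of only 207 bases that a nuclear copy, MTATP8P1, matches at 97.58%, had 71527 and 86057 FPKM at 100 nM, against 117350.4 and 131549.8 FPKM at 20 nM (log2 difference -0.66, SE 0.10, adjusted p = 0.0132), with 69910.2 and 74112 FPKM in solvent, so that 100 nM lay nearest to solvent. MT-ATP8 alone held 7.31% and 8.69% of the FPKM sum at 100 nM, against 11.2% and 12.5% at 20 nM. The cytochrome oxidase subunits MT-CO1 (-0.35) and MT-CO2 (-0.30), MT-ND6 of complex I (-0.33) and MT-ATP6 of ATP synthase (-0.29) fell, but under rescaling to a common sum, median-of-ratios scaling and GC adjustment these 4 lost the call (adjusted p 0.056 to 0.097) and 1 of 15 stayed called. Of 39 nuclear genes of the respiratory chain (median 0.02), COX8A rose (0.31), SDHA fell (-0.24) and 37 did not pass. Of 37 cytosolic ribosomal protein genes, 5 rose (RPL37 0.44, RPL38 0.43, RPL22 0.42, RPL10 0.25 and RPL27 0.18) and 32 did not pass, with a median of 0.05, and RPL22 shares 98.04% identity over 357 bases with the pseudogene RPL22P1. Of 28 ribosome biogenesis genes (median 0.03), the nucleolar protein NPM1 fell (-0.32). All 13 lost the call without library 9 (adjusted p 0.0653 to 0.253), all but MT-ATP8 without 10 (0.0673 to 0.2), all but NPM1 and SDHA without 8 (0.0748 to 0.187), and MT-ND6 without 7 (0.0603). SDHA, too, lost it after rescaling to a common sum (0.0671 to 0.0851 with the 4 mitochondrially encoded genes).

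The largest differences by fitted size lay mostly in noncoding RNAs and pseudogenes. BCYRN1, the brain cytoplasmic RNA BC200 made by RNA polymerase III (chromosome 2, 47335315 to 47335514), was listed at 395 and 430.2 FPKM at 100 nM, against 0 and 0 FPKM at 20 nM, and at 609.7 and 719 FPKM in solvent at 24 h. At 16 h it was listed at 229 and 232 FPKM at 100 nM, 82.7 and 436 FPKM at 20 nM and 0 and 0 FPKM in solvent. The order of the doses thus differed between the times, and the duplicates at 20 nM and 16 h lay far apart. The transcript has 200 bases, of which 159 align at 92.45% identity to a transcript of ZNF3, and a listed 0 may be a failed estimate, so no fold is given. RPS26P6, a pseudogene with 99.71% identity to AC004057.1 over 346 bases, was listed at 21.6 and 38.5 FPKM at 100 nM and at 0 in the other 10 libraries. AL590762.4 was listed at 0 in both 100 nM libraries, against 6.16 and 5.12 FPKM at 20 nM, and at 0 in the other 8. RPS26P6 and AL590762.4 passed the filter on low values through a single group, so their calls are given as a description only. BCYRN1 kept its call without each library in turn, but with 0 in both 20 nM libraries, leaving out 7 or 8 could not change its fitted difference. AL807752.3 (14.96 and 8.96 FPKM at 100 nM), the copy on chromosome 11 of RF00017, a family related to signal recognition particle RNA with several genes of that symbol, (3 and 2.28 FPKM) and AL354733.3 (3.13 and 1.51 FPKM) were called higher and listed at 0 in both 20 nM libraries. SMARCA5-AS1, antisense to SMARCA5, rose (2.27, 6.53 and 6.71 FPKM at 100 nM, 0.460 and 0.720 FPKM at 20 nM), and its reads cannot be told from those of its partner if counting ignored strand. AL031727.1 (0.89), AC068631.2 (0.75, with 100.0% identity to DNAJB11 over 452 bases) and the more abundant of 2 genes named PKD1P1 (0.69, with 98.62% identity to NPIPA1 over 2027 bases) rose. AC034102.2 (-1.06, with 100.0% identity to PA2G4 over 458 bases), AL392089.1 (-1.10) and RPS3AP26 (-0.67, with 98.48% identity to RPS3AP6 over 788 bases) fell. Of 23 listed small and long noncoding RNAs (median 0.02), BCYRN1 was called higher, the imprinted RNA H19 fell (-0.63) and 21 did not pass. The 11 others of these 14 genes lost the call without library 9 (adjusted p 0.109 to 0.216) or 10 (0.0584 to 0.151), 10 of them without 8 (0.0631 to 0.194, RPS3AP26 aside), and SMARCA5-AS1 and H19 without 7 (0.067 and 0.0989). H19 also lost it after rescaling to a common sum (0.0521) and AC034102.2 after median-of-ratios scaling (0.0516) and GC adjustment (0.0588). SMARCA5-AS1 lost it after adjustment for both GC content and length (0.0501).

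Among protein-coding genes, the largest differences were modest. POLR2L, a subunit shared by RNA polymerases (chromosome 11, 837356 to 842545), had 163 and 177 FPKM at 100 nM, against 108 and 99.4 FPKM at 20 nM (log2 difference 0.71, SE 0.12, adjusted p = 0.0198), with 164 and 146 FPKM in solvent. C19orf81 (-0.81), the mitochondrial carrier UCP2 (-0.76), the retinal reductase DHRS3 (-0.71), BACH1, a repressor of heme oxygenase (-0.65), the guanosine monophosphate reductase GMPR (-0.64) and choline kinase beta, CHKB (-0.65), fell. UCP2 had 1.43 and 1.25 FPKM at 100 nM and 2.79 and 3.12 FPKM at 20 nM, and DHRS3 had 1.61 and 1.81 FPKM at 100 nM and 3.53 and 3.36 FPKM at 20 nM, so that neither gene's doses overlapped. CHKB shares 100.0% identity over 2046 bases with the readthrough gene CHKB-CPT1B. All 7 lost the call without library 9 (adjusted p 0.0653 to 0.127), 5 without 8 (0.0672 to 0.0992) and 5 without 10 (0.0554 to 0.139), in both cases all but CHKB and DHRS3, and C19orf81 without 7 (0.0502).

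The remaining 14 genes that stayed called without each library in turn all fell, and were chosen after their values were seen. FLOT2, flotillin 2 of membrane microdomains (chromosome 17, 28879335 to 28897679), had 18.2 and 18.4 FPKM at 100 nM, against 27.5 and 27.3 FPKM at 20 nM (log2 difference -0.56, SE 0.04, adjusted p = 0.0011), with 51.5 and 50.95 FPKM in solvent. CALM2, a calmodulin gene (chromosome 2, 47160082 to 47176601), had 241 and 253 FPKM at 100 nM, against 343 and 343 FPKM at 20 nM (log2 difference -0.47, SE 0.04, adjusted p = 0.00198), with 468 and 469.9 FPKM in solvent. SLC38A2, an amino acid transporter, had 199 and 192 FPKM at 100 nM, against 257 and 278 FPKM at 20 nM (log2 difference -0.45, SE 0.04, adjusted p = 0.00244), with 200.1 and 205 FPKM in solvent. For FLOT2 and CALM2 the 20 nM libraries lay between 100 nM and solvent, and for SLC38A2 they lay above both. The succinate receptor SUCNR1 (-0.71), the ISG15 ligase HERC5 (-0.52), the actin-binding protein TRIOBP (-0.51), the kinase AKT2 (-0.49), the nucleoside transporter SLC29A1 (-0.48), ABHD10 (-0.41), the protein kinase A subunit PRKACB (-0.39), ARL6IP1 of the endoplasmic reticulum (-0.39), spermidine synthase, SRM (-0.36), the phosphatase CTDSP1 (-0.35) and the histone chaperone RBBP4 (-0.33) were the others. All 14 stayed called under each rescaling and under GC adjustment.

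The difference of 100 nM from solvent at 16 h, which uses none of the 4 libraries of the 24 h dose comparison, is given beside it. Calls in both comparisons rest on the same pooled spread of each gene, so the shares called in both are a description and not an independent overlap. Of the 412 genes lower at 100 nM than at 20 nM at 24 h, 318 (77.2%) were also called lower at 100 nM than in solvent at 16 h, 3 were called higher and 91 were not called, and the 318 made up 16.1% of the 1972 genes lower there. Of the 245 higher genes, 135 (55.1%) were also called higher at 100 nM than in solvent at 16 h, 4 were called lower and 106 were not called, and the 135 made up 10.9% of the 1233 higher there. Over all tested genes, 14.7% were called lower and 9.16% higher in that comparison (23.8% in either direction). The difference of 20 nM from solvent at 16 h (912 genes higher, 1476 lower) gave similar shares. There, 307 (74.5%) of the 412 and 126 (51.4%) of the 245 were called in the same direction. All 7 mitotic genes called higher in the 24 h dose comparison were called higher at 100 nM than in solvent at 16 h. Of the 15 called lower, 13 were called lower there and 1, NEK2, higher. At 20 nM against solvent at 16 h, the same 7 were called higher and 14 of the 15 lower. Across the 48 mitotic genes, Pearson's r between the 24 h dose difference and the 16 h difference of 100 nM from solvent was 0.823. It was 0.888 over 14 tubulins and 0.788 over 26 SRF and actin genes, against 0.335 over all 13458 genes. These 3 lists were among the 4 highest of 32, whose r ran from -0.127 (endoplasmic reticulum stress) to 0.888 (tubulins), with -0.079 for mitochondrially encoded and -0.015 for replication genes. With the difference of 20 nM from solvent at 16 h, r was 0.874 for mitosis, 0.848 for tubulins and 0.782 for SRF and actin. Over all genes it was 0.368. With the dose difference at 16 h, r was 0.453 for mitosis, 0.387 for tubulins and 0.588 for SRF and actin genes, against -0.009 over all genes. Genes are not independent replicates, and these values are descriptions.

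**Figure D4:**
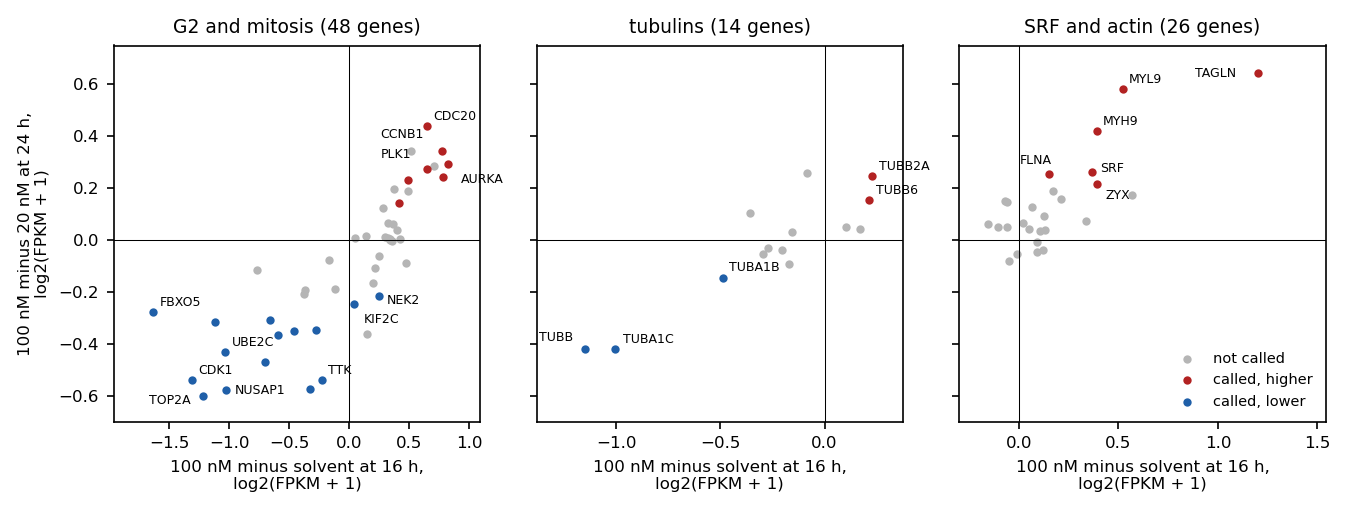
Difference of 100 nM from 20 nM at 24 h (vertical axis) against the difference of 100 nM from solvent at 16 h (horizontal axis), both in log2(FPKM + 1), for the genes of 3 lists, with genes called in the 24 h dose comparison in red (higher) and blue (lower). Called genes lie mostly in the upper right and lower left, with r = 0.823, 0.888 and 0.788 in the panels from left to right, and NEK2 and KIF2C lie lower right.

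For some genes the difference between the doses was not the same at 16 h as at 24 h. At 16 h 43 genes (0.32%) were called, 6 higher (0.0446%) and 37 lower (0.275%) at 100 nM, and 1634 had an unadjusted p under 0.05. The count of called genes was below the one at 24 h with the spread pooled over all libraries. With the libraries of each time alone, however, 10 genes were called at 16 h and 9 at 24 h. In those limma fits 1760 genes had an unadjusted p under 0.05 at 16 h and 2568 at 24 h. The test of the difference between the 24 h and the 16 h dose differences called 70 genes (0.52%), 37 with a higher (0.275%) and 33 with a lower (0.245%) value at 24 h, and 2154 had an unadjusted p under 0.05. CCNE2 was higher at 100 nM at 24 h and lower at 100 nM at 16 h, where it had 11.98 and 11.4 FPKM at 100 nM, against 20.5 and 23.5 FPKM at 20 nM (difference between times 1.43, SE 0.14, adjusted p = 0.0061). JUNB turned in the same way, with 28.98 and 26.8 FPKM at 100 nM at 16 h, against 43.8 and 41.3 FPKM at 20 nM (0.84, adjusted p = 0.0061). STC2 (0.95) and AC012615.1 (1.15) also had a higher dose difference at 24 h. NR1D1, a repressor of the circadian clock (0.83), HES1, a repressor downstream of Notch (0.65), and ID1, an inhibitor of helix-loop-helix factors (0.52), were lower at 100 nM at 16 h (dose differences -0.65, -0.68 and -0.59) and were not called between doses at 24 h (0.18, -0.03 and -0.07); they were chosen after their values were seen. In the other direction, STAT2 had 8.92 and 10.8 FPKM at 100 nM at 16 h, against 7.29 and 6.80 FPKM at 20 nM, and its dose difference was 0.43 there and -0.53 at 24 h (-0.96, adjusted p = 0.0179). TTK (-0.72), MT-ATP8 (-0.90), CHKB (-0.79), FAM83D (-0.70) and DNAJB1 (-0.47) also had a lower dose difference at 24 h. SMARCA5-AS1 was called as well, together with BCYRN1, RPS26P6 and AL590762.4, whose groups listed at 0 allow no fold. At 24 h both 20 nM libraries listed BCYRN1 at 0, so leaving out library 7 or 8 could not change its fitted difference. Its call and those of CCNE2, JUNB, HES1 and FAM83D stayed without each of the 8 drug libraries in turn. Leaving aside RPS26P6 and AL590762.4, above 0 in a single group each, the other 10 lost theirs without library 9 (adjusted p 0.0601 to 0.147), and 5 to 8 of them without library 1, 2, 3, 4, 8 or 10 (0.0565 to 0.155), TTK, CHKB, SMARCA5-AS1 and AC012615.1 without each of these.

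**Figure D5:**
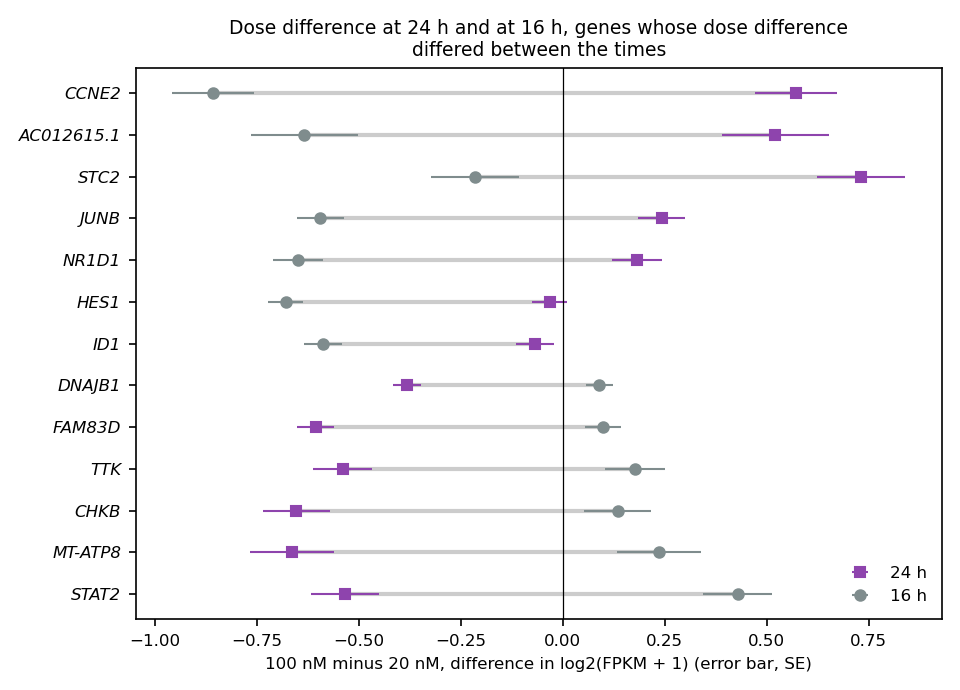
Difference of 100 nM from 20 nM in log2(FPKM + 1) (horizontal axis, error bars SE) at 24 h (purple squares) and at 16 h (grey circles) for 13 genes whose dose difference was called different between the times. CCNE2, AC012615.1, STC2, JUNB and NR1D1 lie above 0 at 24 h and below 0 at 16 h, and STAT2, MT-ATP8, CHKB, TTK, FAM83D and DNAJB1 lie below 0 at 24 h and above 0 at 16 h.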

How the data were processed

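RNA was poly(A)-selected, made into directional libraries (NEBNext kit) and sequenced as paired 100-base reads, per the labels' protocols. FPKM values were computed by the authors with RSEM 1.2.28 on GRCh38, per the submitters' processing notes, and deposited as 1 table of 58174 genes by 12 libraries. The aligner, annotation release and strandedness were not given in the sources used here. Columns name dose and time but not the sample numbers of the labels, so library numbers are those of the columns and no library is tied to a numbered sample.

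Genes with at least 1 FPKM in at least 2 of the 12 libraries (13458, of which 11660 are protein-coding) were tested with limma 3.58.1 in R 4.3.3 on log2(FPKM + 1), with 6 group means, a prior variance that follows the mean, 6 residual degrees of freedom and Benjamini-Hochberg adjustment over all tested genes (threshold 0.05). FPKM are not counts, so no count model was used, and absolute depth is unknown. Gene symbols and positions came from GENCODE 29 (57836 identifiers matched, 338 did not) and promoters from RefSeq GRCh38.p14. The procedure was tested on simulated data with the 13458 genes of the 24 h dose comparison over 5 draws. There it recovered 32.8%, 76.4%, 90.4% and 97.2% of genes changed 1.25-, 1.5-, 2- and 4-fold, and 5.24% of calls were false. Each simulated gene varied independently, without shifts shared by the genes of a library such as the trends over GC content and length. These shares therefore need not hold for the real libraries.

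The members and the gene lists were chosen with earlier results of these data known, and some items are not reported here. Named genes were, among called genes with a symbol whose doses did not overlap and whose higher group averaged 2 FPKM or more, the 12 with the largest rise and the 12 with the largest fall, the 5 largest each way for the difference between times, and, per list, the called members with the 2 largest increases and 2 largest decreases or all members of lists with 14 or fewer tested. Further called members of the lists and the genes called without each library in turn were named after their values were seen. Alternatives were other pseudocounts, filters, scalings, priors and subsets of libraries, protein-coding genes alone and, chosen after seeing the data, removal of trends over GC content and length.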

Additional observations from a re-analysis of the deposited data

Results flagged for a closer look

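The following genes are listed because their dose difference (100 nM minus 20 nM, log2(FPKM + 1)) differed between 24 h and 16 h in limma at an adjusted p under 0.05. Values are the 24 h difference minus the 16 h difference. No group has enough libraries for a test of single outlying samples.

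The dose difference was lower at 24 h for genes of mitosis, namely TTK (-0.72), FAM83D (-0.70), CDC25C (-0.68), NCAPH (-0.52), MELK (-0.52), AURKB (-0.48), NUSAP1 (-0.46), KIF2C (-0.43) and CKAP5 (-0.42), and for TUBA1C (-0.40). It was also lower for the chaperones DNAJB1 (-0.47), HSPA1B (-0.39) and NPM1 (-0.38), the signalling genes STAT2 (-0.96) and AKT2 (-0.41), the membrane proteins FLOT2 (-0.52) and SLC29A1 (-0.39), and for MT-ATP8 (-0.90), CHKB (-0.79), ABHD10 (-0.38) and MSMO1 (-0.33).

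It was higher at 24 h for CCNE2 (1.43), the secreted STC2 (0.95), the transcription regulators JUNB (0.84), NR1D1 (0.83), HES1 (0.65) and ID1 (0.52), for MYL9 (0.51), BAD (0.48) and MAP2K3 (0.46), and for AC012615.1 (1.15) and SMARCA5-AS1 (4.43). BCYRN1 (8.41), RPS26P6 (4.90) and AL590762.4 (-2.73) have fitted values that rest on libraries listed at 0, so these are no folds.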

How the results depend on the processing

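No called gene of the 24 h dose comparison changed sign under any alternative. The doses did not overlap in any called gene, so only rescaling or adjustment for GC content and length could have changed a sign. Other pseudocounts, filters, priors and subsets of libraries could not. Over the 145 genes named from that comparison, 2592 values were computed, of which 1697 stayed past the threshold and 895 did not. The counts moved more. Without a filter on low values 398 genes were called (148 higher, 250 lower), with a constant prior 411 (127 higher), with the 8 drug libraries alone 149 (57 higher, 92 lower), with the 24 h libraries alone 9 (4 higher, 5 lower) and with the 4 libraries of the comparison alone 4 (3 higher, 1 lower). Rescaling to a common sum gave 797 higher and 166 lower, median-of-ratios scaling 392 higher, GC adjustment 243 lower and GC and length adjustment 247 lower. Leaving out 1 library gave 42 to 1511 calls, with 10 to 789 higher and 32 to 722 lower, and the lone library left in a group was then taken to vary like the others. At 16 h, 28 genes were called with a constant prior, 12 without solvent libraries, 10 with the 16 h libraries alone, 15 to 18 without 1 of libraries 1 to 4, 28 without library 9 or 10, 65 without library 7 or 8, and 0 in limma with the 4 dose libraries alone (1671 at an unadjusted p under 0.05). For the difference between times the counts were 376 after rescaling to a common sum, 17 with a constant prior, 5 without solvent libraries and 8 to 491 without 1 library. The fits on fewer libraries had fewer residual degrees of freedom, and the cause of the other shifts was not tested. No paired analysis was possible because the columns carry no sample numbers of the labels. With 2 libraries a group and no counts, neither sampling error nor a depth limit could be given.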
